A study of Mus musculus with 6 samples.

Results

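The peaks described here are sites away from annotated transcription starts at which Chd4 was called both in the library titled iKO and in the library titled siSeh1. A peak of the Chd4 iKO list was taken when its deposited distance to the nearest transcription start site (TSS) was over 1000 bp and its summit lay under 240 bp from a summit of the Chd4 siSeh1 list. There were 297 such peaks among 19993 distal iKO peaks, which is 1.49%, and among 97783 peaks in the 6 lists of the series. Each of the 297 had its own siSeh1 partner, and 294 of the partners were distal in their own list of 24100 distal siSeh1 peaks. The other 3 partners were annotated within 1000 bp of a start. For scale, 722 of 1270 iKO peaks within 1000 bp of a start met the same summit rule, or 56.9%. The peaks were chosen by their position in the 2 Chd4 lists and by TSS distance, so these values are description and carry no test.

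The series is chromatin immunoprecipitation followed by sequencing (ChIP-seq) on primary neural stem cells cultured from newborn (P0) mouse cortex in medium with EGF and bFGF. It holds 6 libraries in 6 groups of 1, so no difference between groups has a replicate check, and all cells were in the proliferation stage. The Chd4 libraries were titled Ctrl, iKO, siSCR and siSeh1. The iKO library was labelled mutant and treated with 4-OH-TAM in growth medium, while Ctrl, siSCR and siSeh1 were labelled wild type in growth medium. Of the 2 Seh1 libraries, Ctrl was labelled wild type in growth medium. The flag library was titled iKO, labelled wild type with 4-OH-TAM, and its list header begins with oe_seh1. The labels do not spell out the group names, and the sources used here do not give the driver of any Cre, the siRNA or the number of animals per culture. Peak lists hold no expression values, so neither the loss of Seh1 nor the cell type could be checked from them.

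Chd4 is an ATPase that slides nucleosomes and is the motor of NuRD, a complex for nucleosome remodelling and histone deacetylation, which also holds histone deacetylases, methyl-CpG-binding Mbd proteins and Gatad2 scaffold proteins. NuRD is known to act at promoters, at enhancers and in pericentromeric heterochromatin, and it takes part in cortical neurogenesis. Seh1 is a nucleoporin of the Y-shaped scaffold of the nuclear pore. Major satellite DNA, named GSAT_MM in the repeat annotation, forms the tandem arrays next to mouse centromeres, of which the genome assembly holds only fragments.

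Some peaks that the deposited annotation placed far from any gene start lay on a start of another gene model. The RefSeq promoter table (GRCm38.p6) put 9 of the 297 peaks (3.03%) within 1000 bp of a start, against 0.695% of all distal iKO peaks. Both shares are lower bounds because the table is incomplete. For some shared peaks it held no start in the same assembly sequence, so these could not match. It also lacked some starts of the deposited annotation. The Ccnd1 peak, 1695 bp from its deposited start, had LTO1 at 26520 bp as its nearest start in the table. The iKO summit lay inside the RefSeq window in 8 of the 9, and 7 of these windows are shown so that the letters around the summit can be read. The window of Dhcr7 is not printed because its summit is annotated to a 5′ untranslated exon. Each is the 250 bases before the RefSeq start, 5′ to 3′ on the gene's strand, and capitals mark CCAAT in either orientation (printed as CCAAT or ATTGG).
Gatad2b, chr3:90292931-90293180, plus strand: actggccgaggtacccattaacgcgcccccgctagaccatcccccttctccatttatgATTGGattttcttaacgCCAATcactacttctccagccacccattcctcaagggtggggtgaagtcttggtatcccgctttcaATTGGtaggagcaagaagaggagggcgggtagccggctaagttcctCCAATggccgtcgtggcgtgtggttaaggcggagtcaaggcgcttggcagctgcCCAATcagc
Apc2, chr10:80298853-80299102, plus strand: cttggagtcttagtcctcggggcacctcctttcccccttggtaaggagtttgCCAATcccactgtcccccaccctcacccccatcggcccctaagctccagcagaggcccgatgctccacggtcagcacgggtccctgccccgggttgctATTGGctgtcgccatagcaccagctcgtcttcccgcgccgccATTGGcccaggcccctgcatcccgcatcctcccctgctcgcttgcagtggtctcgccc
Zfp775, chr6:48601757-48602006, plus strand: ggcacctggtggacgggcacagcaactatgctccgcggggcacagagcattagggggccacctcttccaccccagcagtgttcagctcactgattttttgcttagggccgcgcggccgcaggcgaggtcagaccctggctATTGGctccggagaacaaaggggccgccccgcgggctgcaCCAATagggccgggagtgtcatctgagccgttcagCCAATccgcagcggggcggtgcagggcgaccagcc
Ip6k2, chr9:108783562-108783811, plus strand: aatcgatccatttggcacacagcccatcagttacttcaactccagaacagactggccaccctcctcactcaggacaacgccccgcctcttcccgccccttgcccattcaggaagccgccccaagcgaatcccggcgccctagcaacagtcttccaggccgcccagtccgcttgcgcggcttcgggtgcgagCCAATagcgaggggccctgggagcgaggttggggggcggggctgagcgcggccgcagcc
Gm51425, chr17:17004866-17005115, plus strand: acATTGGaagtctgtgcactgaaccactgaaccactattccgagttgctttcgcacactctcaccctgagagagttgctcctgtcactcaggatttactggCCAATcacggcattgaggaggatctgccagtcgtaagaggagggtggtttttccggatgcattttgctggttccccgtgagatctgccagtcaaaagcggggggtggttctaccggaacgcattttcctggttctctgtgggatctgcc
Gm27008, chr3:106981599-106981848, minus strand: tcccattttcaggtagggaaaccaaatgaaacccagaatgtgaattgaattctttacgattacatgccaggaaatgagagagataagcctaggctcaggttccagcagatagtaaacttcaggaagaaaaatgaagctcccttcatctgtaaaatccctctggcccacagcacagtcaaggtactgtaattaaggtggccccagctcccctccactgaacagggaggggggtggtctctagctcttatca
Gm46071, chr8:121037958-121038207, minus strand: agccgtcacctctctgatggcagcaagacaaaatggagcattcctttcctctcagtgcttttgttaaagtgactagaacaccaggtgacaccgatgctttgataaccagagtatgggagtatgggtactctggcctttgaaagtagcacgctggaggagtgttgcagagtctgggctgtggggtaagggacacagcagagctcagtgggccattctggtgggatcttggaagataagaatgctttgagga
Gatad2b encodes a scaffold subunit of NuRD itself. Its iKO summit lay 136 bp before the start, with a deposited peak score of 6.12, and the siSeh1 summit was 13 bp away with a score of 17.3. The deposited annotation assigned this peak to Mir7012, at 22896 bp, and the siSCR list also held it. Apc2, a relative of the Wnt regulator Apc that is expressed in neurons, had its summit 54 bp before the start, with scores of 7.83 in iKO and 4.58 in siSeh1. The Zfp775 start, of a zinc finger gene, had the summit at 139 bp and was assigned to Repin1, with scores of 4.78 and 14.4. Ip6k2, an inositol hexakisphosphate kinase, had its summit 32 bp before a RefSeq start, while the deposited annotation measured 12214 bp to another start of the same gene. Gm51425, a predicted gene, had its summit at 85 bp, with scores of 8.60 and 10.6, and was also in siSCR. The other 4 peaks were at Dhcr7, a cholesterol synthesis enzyme (74 bp), and at the predicted genes Gm31936 (885 bp), Gm27008 (1 bp) and Gm46071 (238 bp). CCAAT was searched on both strands after the sequences had been seen. It occurred 5 times at Gatad2b, 3 times at Apc2 and at Zfp775, 2 times at Gm51425 and at Dhcr7, 1 time at Ip6k2, and not at Gm27008 or Gm46071. At least 1 match was present in 33.8% of the 32851 RefSeq windows of this length, and 3 or more in 2.79%. A match describes the letters and shows no bound factor.

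Satellites and CpG islands were the classes in which a distal iKO peak most often had a siSeh1 partner. Of 103 distal iKO peaks in satellites, 72 were shared (69.9%, exact Clopper-Pearson 95% interval 60.1 to 78.5). The class was not uniform. The major satellite GSAT_MM had 70 of 80 shared (87.5%), the satellite IMPB_01 1 of 20 (5%) and a (CATTC)n satellite 1 of 1. Of 48 in CpG islands, 24 were shared (50%, interval 35.2 to 64.8). Among the 19842 peaks in neither class, 201 were shared, or 1.01% (0.878 to 1.16). LINE elements, autonomous retrotransposons, gave 30 of 5172 (0.580%). LTR elements, the remains of endogenous retroviruses, gave 40 of 3007 (1.33%), SINE elements 12 of 1328 (0.904%) and simple repeats 7 of 275 (2.55%). All intervals cover counting error only, and neighbouring peaks of an array are not independent.

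**Figure D1:**
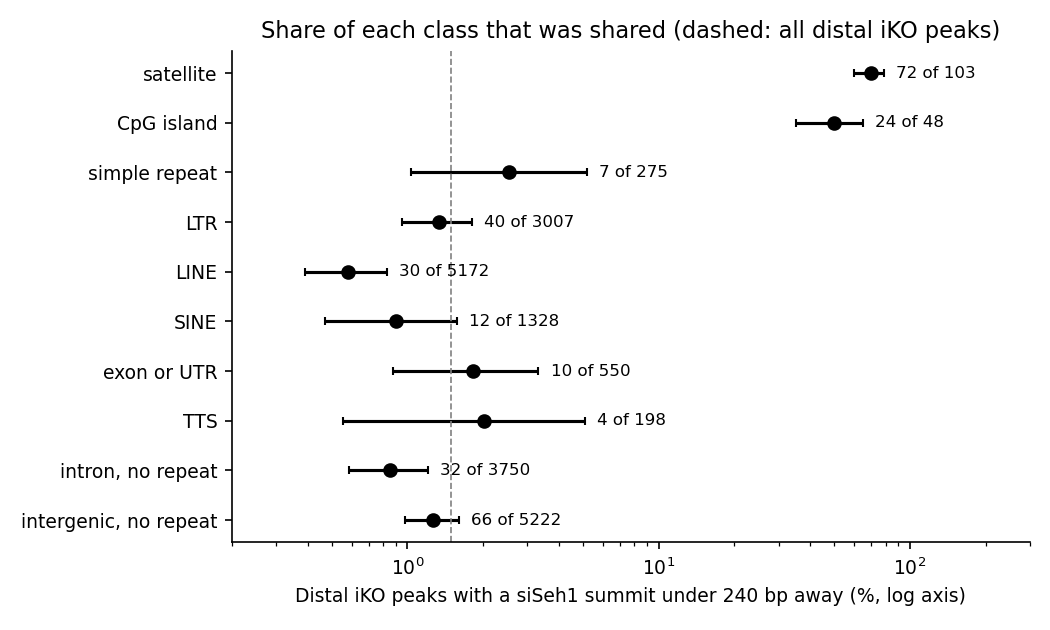
Share of distal iKO peaks in each annotation class with a siSeh1 summit under 240 bp away (x axis in %, log scale), with exact 95% intervals and counts; the dashed line is the share over all distal iKO peaks. Satellites (69.9%) and CpG islands (50%) lie far to the right of every other class plotted, and LINE elements (0.580%) lie farthest to the left.

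Seen from the shared peaks, satellites made up 24.2% (19.5 to 29.5), against 0.515% of all distal iKO peaks and 0.157% of those not shared. CpG islands made up 8.08% (5.25 to 11.8), against 0.24% of all distal iKO peaks and 0.122% of those not shared. LINE elements made up 10.1% of the shared peaks and 26.1% of the others. Repeats of any kind held 161 shared peaks (54.2%), against 51.1% of all distal iKO peaks. With satellites left out of both counts it was 89 of 225 shared peaks (39.6%, 33.1 to 46.3), against 51% of the peaks not shared. Exons and untranslated regions held 10 shared peaks (3.37%), against 2.75% of all distal iKO peaks. By the simple annotation 222 shared peaks were intergenic (74.7%, against 64.5% of the others) and 61 were intronic (20.5%, against 31.8%).

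**Figure D2:**
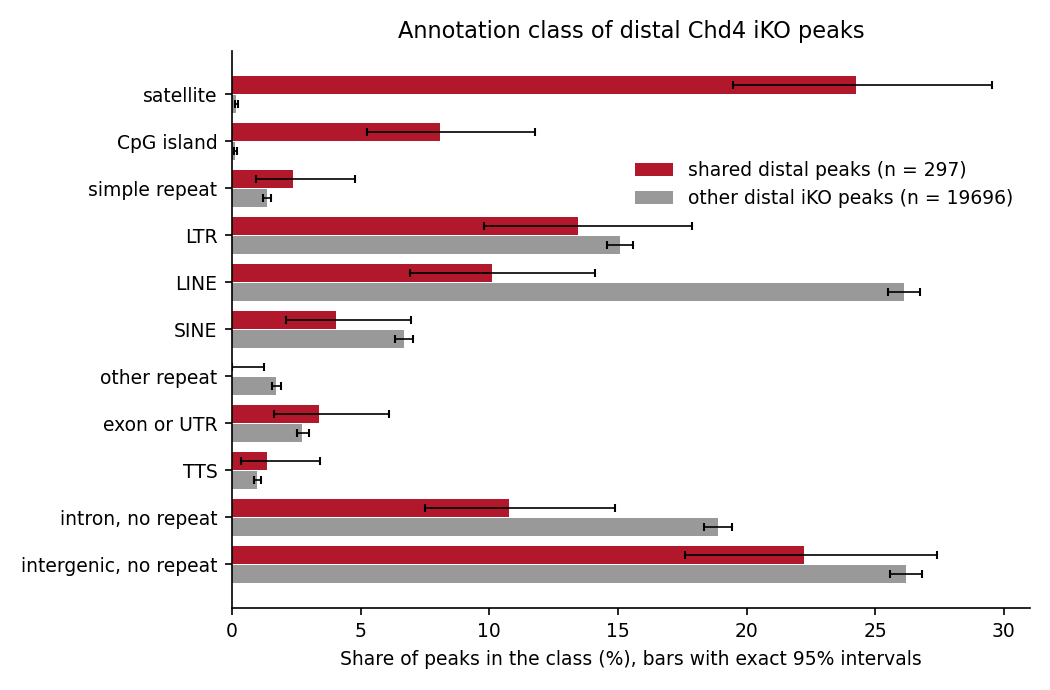
Share of peaks in each annotation class (x axis, %) for the 297 shared distal peaks and the 19696 other distal iKO peaks, with exact 95% intervals. Satellites and CpG islands are more frequent among the shared peaks (24.2% and 8.08%) than among the others (0.157% and 0.122%), and LINE elements less frequent (10.1% against 26.1%).

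The satellite peaks were almost all major satellite and came from a few assembled arrays. GSAT_MM carried 70 of the 72, and these were 87.5% of the 80 distal iKO peaks in GSAT_MM and 89.7% of the 78 distal siSeh1 peaks in it. By place, 29 lay at the start of chromosome 9, between 3000449 and 3037232, where mm10 keeps a piece of pericentromeric sequence, and 36 lay on the unplaced contig JH584304. Another 4 lay on chromosome 14 near 19415915, and chromosomes 2, 6 and 17 had 1 each. The deposited iKO scores of the 70 ran from 2.76 to 29.7, with a median of 10.97. The siSeh1 summit was at most 65 bp away, with a median of 10.5 bp, and 52 of the 70 pairs were within 20 bp. The rule allowed distances under 240 bp, so these are a description of chosen pairs. The highest satellite peak by mean percentile and by iKO score, chr9:3008579, scored 29.7 in iKO (rank 6 of 21294) and 27.0 in siSeh1 (rank 30 of 26935), with the summits 1 bp apart. Next came chr9:3012272 (26.8 and 28.1, 9 bp apart) and chr9:3010981 (28.3 and 21.8, 1 bp apart). Further chromosome 9 peaks among the first 12 of all shared peaks by mean percentile were 3029730 (20.4 and 23.9), 3015325 (18.4 and 22.1), 3033817 (26.5 and 18.1) and 3017958 (18.1 and 19.9). On the contig the highest by mean percentile was position 85753, with scores of 18.7 and 23.2, followed by 111025 (18.0 and 22.3), 100051 (16.8 and 21.7) and 75047 (16.4 and 19.7). The highest iKO score on the contig was at 72236 (22.1, with 16.5 in siSeh1). The satellite peaks given with scores here are assigned to the nearest gene, Mir101c on chromosome 9 and the pseudogene Pisd-ps3 on the contig. Their distances run from 4926 bp (3033817) to 51336 bp (111025), so these gene names only label the arrays.
The same arrays held peaks of the Seh1 lists. On the chromosome 9 array iKO had 33 peaks and siSeh1 33, Seh1 Ctrl had 34, Seh1-flag 15, siSCR 2 and Chd4 Ctrl 1. The whole contig, which also holds peaks outside satellites, had 71 iKO peaks (41 in satellites) and 60 siSeh1 peaks (39). Seh1 Ctrl had 42 there (38 in satellites), Seh1-flag 42 (32), siSCR 24 (7) and Chd4 Ctrl 0. On the chromosome 14 array iKO had 5, siSeh1 4 and Seh1 Ctrl 6, while siSCR, Chd4 Ctrl and Seh1-flag had none. Over the genome GSAT_MM had 85 peaks in iKO, 84 in siSeh1, 82 in Seh1-flag, 81 in Seh1 Ctrl, 12 in siSCR and 3 in Chd4 Ctrl. The 4 lists with over 20000 peaks thus had similar numbers of major satellite peaks whichever protein was precipitated. The shorter lists of 2606 (siSCR) and 1154 (Chd4 Ctrl) peaks held fewer. List lengths were 21294 in iKO, 26935 in siSeh1, 24961 in Seh1-flag and 20833 in Seh1 Ctrl. A lower count in a shorter list therefore does not show a lower share of satellites. Reads from such arrays map to many copies, an input library was not analysed here, and the part of copy number, mapping or list length in these peaks was not tested.

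The 24 CpG island peaks lay near genes of many roles. CpG islands are stretches rich in CG dinucleotides that often mark promoters, and all 24 were at least 1006 bp from the annotated start. Of these, 18 were intergenic and 6 intronic. Igf2bp3, which encodes an RNA-binding protein of fetal growth, had the strongest, at chr6:49218124, with scores of 11.3 in iKO and 15.4 in siSeh1 and a siSCR summit beside it. Nr1d1, the circadian repressor Rev-erb alpha, had a peak in intron 1 (8.89 and 8.72). Pnrc1, a nuclear receptor coactivator, had one in its intron 1 at 1006 bp (8.39 and 5.44, also siSCR). Gpr84, a G protein-coupled receptor for medium-chain fatty acids, had 8.36 and 7.19 with the summits 1 bp apart, also in siSCR. Another lay 36424 bp from Mir6935 (10.3 and 5.44). Nr4a1, an immediate-early nuclear receptor gene, had a peak at 20500 bp (5.52 and 9.11, also siSCR). Bbc3, the p53 target Puma that triggers apoptosis, had one at 9863 bp (4.74 and 10.2, also siSCR). Ccnd1, cyclin D1 of the G1 phase, had one at 1695 bp (3.93 and 3.79). MicroRNA loci were among them, Mirlet7a-1 at 8399 bp (5.47 and 15.5) and Mir30a at 16086 bp (7.86 and 10.2). The others in both lists lay near Creb3l1, Zcchc14, Aacs, Insr, Kif14, Cirbp, Map1lc3b, Scd3, Prdm1, Nsd1, Repin1, Ip6k2, Fpr2 and Gm21119. The peaks assigned to Repin1 and Ip6k2 are those described above at RefSeq starts, 139 bp before Zfp775 and 32 bp before Ip6k2. The siSeh1 rank of the 24, as a percentile, was above the iKO one in 12 and not above it in 12.
None of the CpG island peaks was in a Seh1 list, and some were in siSCR. Seh1-flag, Seh1 Ctrl and Chd4 Ctrl each held 0 of 24, which allows up to 14.2% by the exact interval, while siSCR held 8 of 24 (33.3%, 15.6 to 55.3). Over all distal iKO peaks Seh1-flag held 0.88% and Seh1 Ctrl 1.14%, so 0 of 24 is near the background, and the 24 distal CpG island peaks that were not shared also had 0 in both Seh1 lists. None of the 24 distal iKO CpG island peaks that were not shared was in siSCR, and their median iKO percentile was 45.8, against 94.4 for the shared ones.

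A CTGTG repeat linked a small group of shared peaks that recurred across lists. CTGTG and CACAG are the same pentamer on opposite strands, and 7 distal iKO peaks lay in simple repeats of it. The 5 shared ones were in intron 1 of Smo (chr6:29748406, scores 10.3 and 6.07), 2 in intron 1 of 2700054A10Rik (11.8 and 18.8, and 10.2 and 19.4) and 2 near Zfp825 (6.999 and 31.5, and 4.11 and 3.60). Smo is the signal transducer of the Hedgehog pathway. All 5 also had a summit in siSCR and in Seh1-flag under 240 bp away, and the Smo peak and 1 of the 2700054A10Rik peaks were also in Seh1 Ctrl. None was in Chd4 Ctrl. Of the 2 pentamer peaks that were not shared, the one on the contig at 2569 was also in siSCR and in Seh1 Ctrl. The one at chr13:74529716 was in neither siSCR nor a Seh1 list. The other 2 shared simple repeats, a CAG repeat near Erbin and a TG repeat near 4930583I09Rik, were in none of the 4 other lists. The pentamer group was singled out after its values were seen.

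Among the shared peaks outside repeats and CpG islands, the 5 highest by mean percentile were nearest to Mir6976, Steap1, Mir6935, Tle2 and Fosb. The strongest of all 297 by its mean percentile, chr17:46552888, was annotated to the end of Mir6976, 1001 bp from that start, and lies inside the RefSeq span of Srf, the serum response factor. It scored 33.4 in iKO (rank 2) and 45.3 in siSeh1 (rank 3), and siSCR held it too. Fosb, a component of the AP-1 transcription factor, had a peak in intron 1 at chr7:19308597, with scores of 9.38 and 24.1, also in siSCR. An intergenic peak at chr11:120316233, 31180 bp from Mir6935, scored 15.9 and 18.9, and one at chr10:81571769, 3518 bp from the corepressor gene Tle2, scored 13.6 and 16.2, both also in siSCR. A peak at chr5:5782955, 33638 bp from Steap1, scored 12.3 in iKO (rank 117) and 39.3 in siSeh1 (rank 4) and was also in Seh1-flag. Gpm6a, a neuronal membrane glycoprotein gene, was the nearest gene of 3 shared peaks, at 165699, 168375 and 409484 bp, and all 3 were in siSCR. Peaks in introns of Mrps27, a mitochondrial ribosomal protein gene (6.55 and 15.5), and of Zfp608 (8.33 and 8.29) and an intergenic one near Gm9895 (7.54 and 9.23) were in none of the 4 other lists. Per1, a core clock gene, ranked below them, with a peak at 3849 bp (6.40 and 8.14) that was in siSCR. Further intronic peaks high in iKO were near Speer4c (8.22 and 5.64, also in both Seh1 lists) and in Fbxo46 (7.42 and 3.62). An intergenic peak near Smgc scored 10.5 in iKO and 2.58 in siSeh1 and was also in Seh1 Ctrl.
Exons held a few named sites. One lay in exon 6 of 39 of Chd4 itself, at chr6:125101611, with scores of 4.18 in iKO and 14.4 in siSeh1 and a siSCR summit beside it, although its assigned nearest start was Mir7045 at 4587 bp. Slit1, an axon guidance ligand, had a peak in its exon 37 of 37 (10.2 and 4.71), and Dhcr7 had one in its 5′ untranslated exon 2 (6.76 and 11.7). The ribosomal RNA locus Rn45s had one (5.75 and 6.97) that was also in Seh1 Ctrl. Hp, the plasma protein haptoglobin, had the fifth-highest iKO score of the list in exon 5 (29.8) but a siSeh1 score of 3.35, with the summits 235 bp apart, close to the limit of the rule. The other exonic peaks were in Zbed5 (4.12 and 2.87) and Vmn2r6 (2.67 and 3.79) and in the 3′ untranslated regions of Agfg1 (3.44 and 3.25), Phf19 (3.16 and 5.41) and Tprkb (2.10 and 3.73). Besides Mir6976, peaks at transcript ends lay near Pisd-ps3 (3.69 and 4.71), 9430038I01Rik (3.39 and 3.79) and Mroh4 (2.79 and 3.58).
LTR peaks were led by RLTR11A, 117568 bp from Vmn1r238 (19.1 and 13.6, also Seh1 Ctrl), and RLTR10, 3714 bp from AY761185 (9.72 and 2.84). MLT1J lay 202440 bp from Cadm1, an adhesion gene (9.38 and 8.03), and IAPEY3-int 113218 bp from Macc1 (8.13 and 5.48). An RLTR10 peak (7.42 and 4.58) was assigned to Cdh9, a cadherin gene, at 1225732 bp, the largest distance of the 297, so the name is only a label. Peaks in MLT1J2 and MLT1J1, 3967 and 41078 bp from Cstad (6.23 and 10.3, 6.15 and 10.7) were both in siSCR. The MLT1K peak 4676 bp from Ccne1, cyclin E1, scored 2.30 in iKO and 8.14 in siSeh1. SINE peaks were led by B1_Mus1 near Ly6c2 (10.4 and 8.19, summits 1 bp apart, also Seh1-flag), followed by 4930528P14Rik (4.74 and 4.55), Far2 (4.35 and 2.36), Kcnk12 (3.93 and 4.58) and Rflna (3.44 and 2.72). LINE peaks had low scores, from 2.54 to 5.59 in iKO, and were led by peaks near 9030619P08Rik (5.59), 4921539E11Rik (5.58), 4930426D05Rik (5.01), Anxa10 (4.62) and Sntb1 (4.27). L1Md_T, a young L1 family, held 11 of the 30 (36.7%, 19.9 to 56.1) and 722 of all 5172 distal iKO LINE peaks (14%).

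The distance between the paired summits differed by class. The median was 51 bp over all 297, 11.5 bp in satellites, 47.5 bp in CpG islands, 80 bp in LTR and 111.5 bp in LINE elements. Distal iKO peaks in satellites numbered 72 under 240 bp and 3, 3, 3 and 2 in the next 4 steps of 240 bp, and those in CpG islands 24, then 1, 0, 0 and 2. Peaks in LINE elements numbered 30 under 240 bp, then 22, 26, 26 and 23, so pairs under 240 bp were little more frequent than pairs farther apart. For all peaks in neither satellites nor CpG islands the numbers were 201, then 119, 109, 104 and 105. Within the 201, the steps of 60 bp held 86, 50, 37 and 28, so the excess lay at short distances and the last step was near the level beyond 240 bp.

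**Figure D3:**
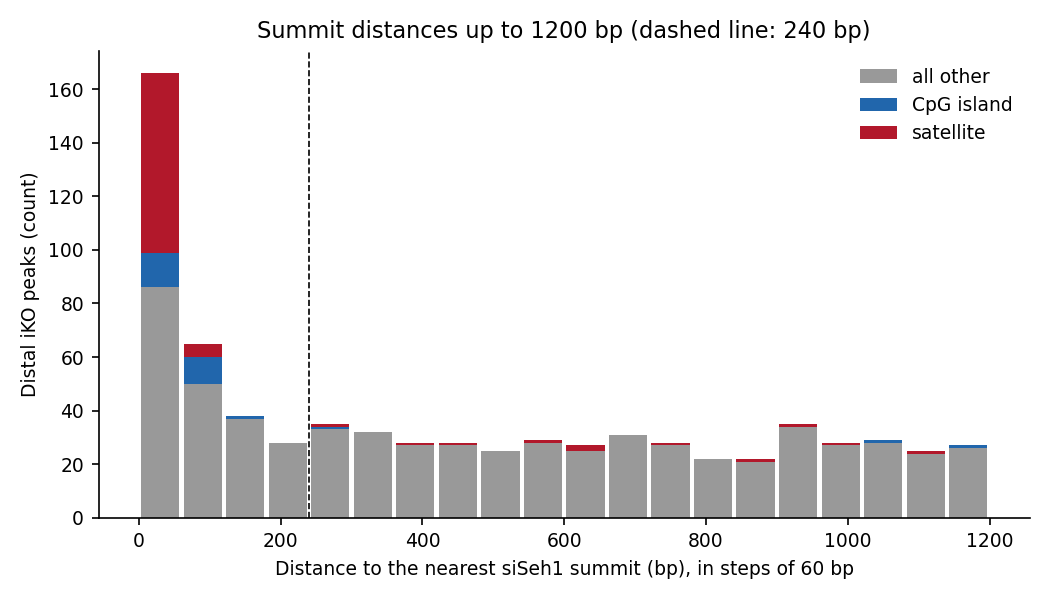
Distal iKO peaks (count) by distance to the nearest siSeh1 summit (x axis, bp, steps of 60 bp), stacked as satellites, CpG islands and all other peaks; the dashed line is the 240 bp limit. The first step stands out, most satellites fall in it, and counts of other peaks level off from about the fourth step (28) onward.

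At the limit itself, the shared peaks near Etd (239 bp), Rn4.5s (237 bp) and Get4 (237 bp) scored 3.12, 4.44 and 4.39 in iKO, and the peaks just outside, near Fbxo22 (241 bp), Cpxcr1 (242 bp) and Slc4a10 (243 bp), scored 3.17, 3.39 and 2.08. At the TSS limit, the peaks near Mir6976 (1001 bp), Pnrc1 (1006 bp) and Gm3772 (1032 bp) were inside, with scores of 33.4, 8.39 and 5.59. Those near Rap2a (-905 bp, upstream), B330016D10Rik (999 bp) and Gm11166 (983 bp) were outside, with 6.55, 3.91 and 4.12.

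Shared peaks ranked high in both lists. A deposited score can be compared only within a list, so ranks and percentiles are given, where 100 is the highest score of a list. The median iKO percentile was 87.6 for the shared peaks (median score 4.74) and 48.1 for distal iKO peaks not shared (3.39), and the median siSeh1 percentile of the partners was 89.6. Satellites had medians of 99.2 in iKO and 97.9 in siSeh1, CpG islands 94.4 and 97.8, LTR elements 69.3 and 79.2, and LINE elements 48.1 and 44.8. LINE peaks thus ranked like the distal peaks that were not shared. Of the 100 highest distal iKO peaks 61 were shared (61%, 50.7 to 70.6), then 14.8% of ranks 101 to 500, 1.8% of ranks 501 to 2000, 0.975% of ranks 2001 to 10000 and 0.721% of the rest. With satellites left out the same steps gave 29%, 7.5%, 1.53%, 0.925% and 0.698%, so the order remained outside satellites. A total of 112 shared peaks were in the top 10% of both lists, among them 63 satellites, 13 CpG islands and 31 also in siSCR. Many scores were tied, with 753 different values over the 21294 iKO peaks, so ranks in the lower part are coarse.

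**Figure D4:**
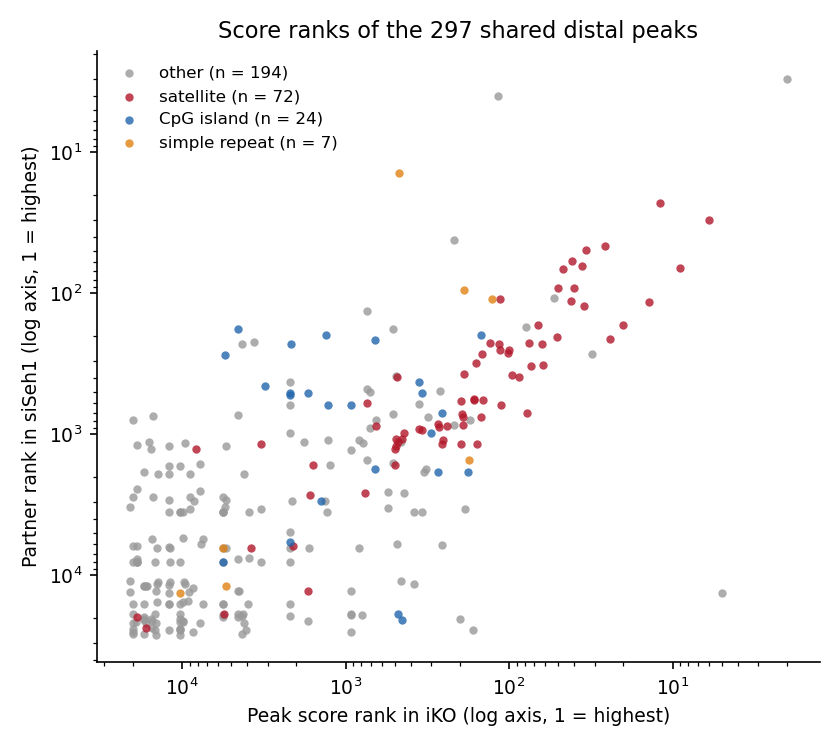
Score rank in iKO (x axis) against the rank of the partner in siSeh1 (y axis) for the 297 shared distal peaks, both on log axes with 1 as the highest, coloured by class. Satellites run along the diagonal near the top of both lists, while CpG islands and the other peaks spread more widely.

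Presence in the other 4 lists was not used by the rule. Of the 297 shared peaks, 177 were in none of the 4 (59.6%, 53.8 to 65.2), against 97.8% of all distal iKO peaks and 98.4% of those not shared. The siSCR list held 44 (14.8%, 10.98 to 19.4), against 0.425% of all distal iKO peaks and 0.208% of those not shared. Chd4 Ctrl held 2 (0.673%), against 0.07% of all distal iKO peaks. These were the satellite peak chr9:3037232 and the RLTR10 peak near AY761185. Seh1-flag held 46 (15.5%, 11.6 to 20.1), against 0.88%, and Seh1 Ctrl held 78 (26.3%, 21.3 to 31.7), against 1.14%. Seh1 Ctrl presence was read from intervals of 240 to 1296 bp and the rest from single summits. Wide intervals admit more summits, so the Seh1 Ctrl shares are not on the same measure as the others. A peak was in both Seh1 lists in 32 cases and in at least 1 of them in 92 (31.0%). The siSCR and Chd4 Ctrl lists hold 2201 and 1139 distal peaks, far fewer than iKO, so absence from them does not show that Chd4 was absent there.
The overlap with Seh1 lay mostly in satellites and the overlap with siSCR mostly outside them. Of the 72 satellite peaks 67 were in Seh1 Ctrl (93.1%, by intervals). By summits, 30 were in Seh1-flag (41.7%), 7 in siSCR (9.72%) and 1 in Chd4 Ctrl. In all, 3 satellite peaks were in neither Seh1 list. Of the 31 distal iKO satellite peaks that were not shared, each Seh1 list held 5 (16.1%), and siSCR and Chd4 Ctrl held 0. These groups also differed in satellite family. GSAT_MM carried 70 of the 72 shared peaks, whereas IMPB_01, another satellite, had 20 distal iKO peaks of which 1 was shared. Of the 214 shared peaks outside satellites and the contig, 10 were in Seh1 Ctrl (4.67%), 15 in Seh1-flag (7.01%) and 33 in siSCR (15.4%). For distal iKO peaks not shared and outside the same regions, those values were 0.733%, 0.636% and 0.188%. Shared peaks in siSCR had a median iKO percentile of 97.7, and the others 80.3. Of the 44 siSCR summits 32 lay within 50 bp of the iKO summit, with a median of 27.5 bp.

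**Figure D5:**
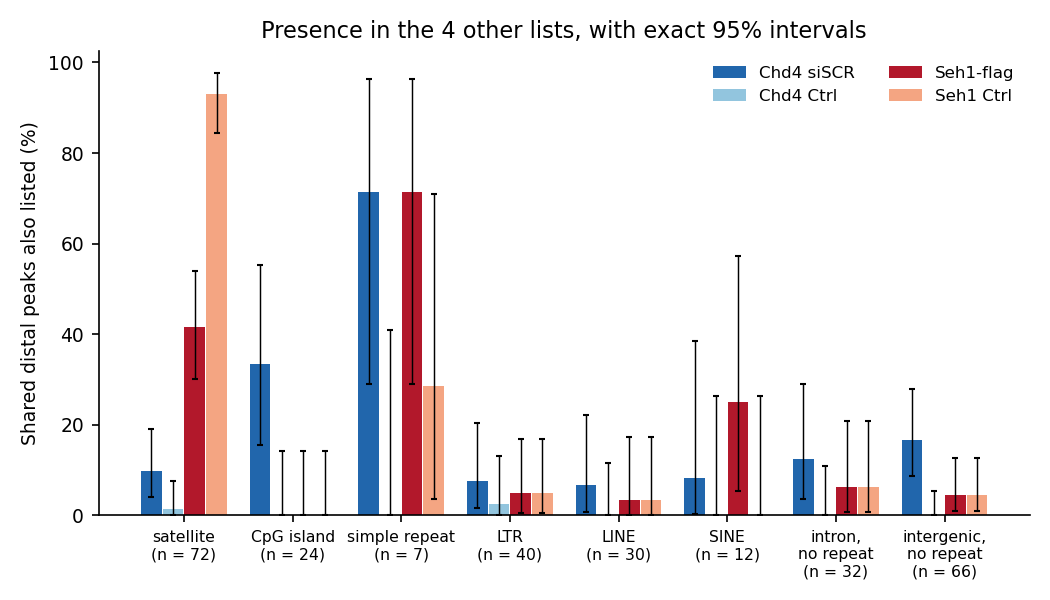
Share of shared distal peaks (y axis, %) with a peak at the same place in the siSCR, Chd4 Ctrl, Seh1-flag and Seh1 Ctrl lists, by annotation class, with exact 95% intervals; classes of 10 or fewer other than simple repeats are not drawn. Satellites stand out in Seh1 Ctrl (93.1%) and Seh1-flag (41.7%), CpG islands in siSCR only (33.3%), and the 7 simple repeats in siSCR and Seh1-flag. Seh1 Ctrl presence was read from intervals and the rest from single summits, so their bars are on unlike measures.

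The nearest genes were 206 different genes, and their counts in the gene lists were small. The 297 starts were 171 protein-coding, 68 noncoding RNA, 55 pseudogene, 2 ribosomal RNA and 1 without a type, with Pisd-ps3 nearest to 47 peaks and Mir101c to 29. Of 21900 protein-coding genes 0.712% were nearest to a shared peak, and 33% to any distal iKO peak. At 0.712% a list of 8 to 30 genes would most often hold none, so counts of 0 or 1 are near the background. Nearest to a shared peak were 0 of 30 symbols of neural stem cell factors, 29 of them in RefSeq (13 were nearest to any distal iKO peak). Neuronal genes had 1 of 29 (14 to any distal iKO peak), Nrxn3, a synaptic adhesion gene (intron 18 of 19, scores 3.83 and 2.68). Oligodendrocyte genes had 0 of 11 and astrocyte genes 0 of 8, with 3 of each nearest to any distal iKO peak. The cell cycle list had 2 of 28 (Ccnd1 and Ccne1), developmental signalling 1 of 30 (Smo) and p53 targets 1 of 14 (Bbc3). For any distal iKO peak these lists had 8, 16 and 4. Genes of NuRD (15), other chromatin regulators (18), nucleoporins (26, of which 25 were in RefSeq), genes of other tissues (21) and histones (26) had none by nearest start. For any distal iKO peak they had 5, 8, 12, 9 and 0. The Chd4 exon and the Gatad2b start, described above, were assigned to microRNA genes by the deposited annotation and so are missing from the NuRD count. The families that follow were matched by symbol pattern, not by gene type, whereas 0.712% is a share of protein-coding genes. Olfactory and vomeronasal receptors had 7 of 2073 and zinc finger genes named Zfp 7 of 416 (415 and 120 for any distal iKO peak). Symbols beginning with Rpl or Rps, taken for ribosomal proteins, had 0 of 407, and cadherins and protocadherins 1 of 98 (Cdh9, at 1225732 bp). For any distal iKO peak these had 20 and 34.
Shared peaks lay nearer to starts than the other distal iKO peaks. The median distance was 26064 bp against 57246 bp. The range over 1000 and up to 5000 bp held 13.5% (9.80 to 17.9) of the shared peaks and 6.66% of the others, 5000 to 50000 bp held 55.9% and 40.2%, and 50000 to 500000 bp held 28.6% and 45.3%. The median was 27918.5 bp for the shared satellite peaks, and for peaks in neither satellites nor CpG islands it was 30474 bp (shared) and 57391 bp (not shared).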

How the data were processed

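Chd4 and Seh1 ChIP-seq peaks were taken as deposited, 1 list per library. Per the submitters' processing notes Bowtie2 and HOMER were used (no versions), with human builds listed, whereas the lists carry mouse build mm10 per the file headers. The sources used here do not give caller, threshold, input or pooling. The peak score is the authors' deposited score, with no stated scale. Distances to TSS, in bp, and annotation are the authors' deposited HOMER values. In 5 lists a peak is a single position, and Seh1 Ctrl holds intervals of 240 to 1296 bp with all scores at 0. Depth is unknown.

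Presence in another list meant a summit under 240 bp away, and for Seh1 Ctrl an interval edge under 120 bp from the summit. Python 3.11.15, numpy 2.4.6, pandas 2.3.3, scipy 1.17.1 (Clopper-Pearson 95% intervals) and matplotlib 3.10.9 were used, and the overlap code was tested on simulated data. Classes were read from the deposited detailed annotation. RefSeq tables (GRCm38.p6) gave gene spans and starts, and 295 of 296 gene IDs matched. With 1 library per group no test between groups was made.

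The peaks and gene lists were chosen with earlier results of these data known. The rule for names took the first 12 by mean percentile, the first 5 by iKO score of a class, the first 8 by iKO score also in each other list, the limits of the distance rule, genes with repeated peaks and list genes. Peaks that only the last 4 parts take are not all named, nor are all satellite peaks. RefSeq starts, Srf, Chd4, Gatad2b, the pentamer repeats, Per1, Mrps27, Gm9895, Cstad, the microRNA loci and the remaining CpG island genes were named after their values were seen.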

Additional observations from a re-analysis of the deposited data

How the results depend on the processing

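The share in siSCR or Chd4 Ctrl, the share in exons or untranslated regions and the share in CpG islands moved little with the summit distance. With a score of at least 5 in both lists, which assumes a common scale, 111 peaks were shared, 27.9% of them were in siSCR, 68.5% were in repeats, and the median iKO percentile was 99.0. With summits under 120 bp apart the share in Seh1 Ctrl was 32.5% and the median percentile 94.9, and with summits under 480 bp apart they were 19.8% and 75.8. Leaving out satellites and the contig JH584304, an alternative added after seeing the data, gave 7.01% in Seh1-flag, 4.67% in Seh1 Ctrl, 40.7% in repeats and a median percentile of 71.9. These were 12 of 49 recomputed values, and the other 37 stayed within the interval of the reported value or, for the count, within 1.5 times. The count was 231 under 120 bp, 420 under 480 bp, 257 with distal set at over 5000 bp, 273 with peaks closer than 1000 bp merged, 294 with the partner also distal, 237 without dense 200 kb bins and 214 without satellites and the contig. The cause of these shifts was not tested. No paired analysis was possible because each group holds 1 library, and for the same reason no replicate could be left out. Depth is unknown, so a peak missing from a list may be a peak below its threshold.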
